A study of Mus musculus with 2 samples.

Results

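The 38 genes described here serve the endoplasmic reticulum (ER), where secreted and membrane proteins are threaded into the lumen, folded, given disulfide bonds and, when folding fails, sent back for degradation. They were chosen from a list of names, with no measured value in the rule but with earlier results of these data known. All 38 were among the 32228 genes of both matrices. By role they comprised 3 sensors and transcription factors of the unfolded protein response, 11 genes of translocation and signal peptide cleavage, 11 chaperones and cofactors, 5 disulfide isomerases and 8 genes of ER-associated degradation (ERAD). Their mRNA was measured by droplet single-cell RNA sequencing of sorted CD45+7AAD- cells, the live leukocytes of the colonic lamina propria (LP), from C57BL/6 mice with colitis induced by dextran sulfate sodium (DSS). A library each was made from WT mice and from mice lacking Ring1a (labelled Ring1AKO), a subunit of the polycomb repressive complex that ubiquitinates histone H2A. Both groups were 8 to 10 weeks old by the labels and had received DSS, and each library was a pool of 5 mice, so nothing here shows the level of an untreated colon or the spread between mice.

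A plasma cell devotes its translation to immunoglobulin, and the ER has to grow with that load. Most nascent chains enter through the Sec61 channel, lose their signal peptide to the signal peptidase complex, and are held by the Hsp70-type chaperone BiP (Hspa5) and its helpers until they assemble. When unfolded chains accumulate, the sensor IRE1alpha (Ern1) splices the mRNA of Xbp1, and ATF6 is released from the membrane by cleavage, and both factors raise transcription of chaperone and ERAD genes. Another arm, through the kinase PERK, slows translation. In the colon most plasma cells make IgA, which is carried across the epithelium into the lumen.

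Barcodes were kept as cells with at least 1000 UMIs (unique molecular identifiers, each standing for a captured mRNA molecule), at least 500 genes and less than 5% mitochondrial UMIs. This gave 6005 cells and 61864835 UMIs in the WT library and 7918 cells and 69029466 UMIs in the library labelled Ring1AKO, with medians of 6354 and 5035 UMIs per cell, and 11 cell barcodes occurred in both. Pairs of values below are in the order WT, Ring1AKO. Clusters were named from markers that left out all 38 genes and are plasma-like, B-like and so on, shortened here to plasma cells and B cells. Plasma cells numbered 535 and 451 for IgA and 23 and 42 for IgG, B cells 1115 and 3442, T cells 1629 and 1767, and myeloid cells 1694 and 1144. All 10 plasma markers were detected in the IgA and in the IgG plasma cells of both libraries, with sums of 137131 and 167395 CPM in IgA and 78425 and 53363 CPM in IgG plasma cells. These sums were mostly J chain. The median marker was at 315 and 284 CPM in IgA and 305 and 205 CPM in IgG plasma cells. Mouse plasma cells also transcribe Ly6c2, one of the monocyte and macrophage markers, and those markers summed to 6293 and 5249 CPM in IgA plasma cells, while the T cell markers summed to 57.5 and 86.3 CPM. A pair of clusters with 133 and 211 cells carried plasma markers together with those of T cells or macrophages and were left out, by a limit set after the clusters were seen. Ring1 was at 13.4 CPM (12.5 to 14.3) in the cells of the WT library and 11.8 CPM (11.0 to 12.7) in those of the Ring1AKO library. For Ring1 alone these CPM are of all UMIs, immunoglobulin included. The counts come from the 3′ end and the sources used here do not place the deleted part, so this level checks neither label. With a single library per genotype there was no test, genotype and library cannot be told apart, and intervals are exact 95% counting intervals that cover counting error only.

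The promoters are shown first, since the classical response acts through a short element in them. The ER stress element, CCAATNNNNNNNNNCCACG, binds the general factor NF-Y at CCAAT and ATF6 or XBP1 at CCACG, and a shorter type II element, ATTGGNCCACG, is known from Herpud1. RefSeq promoters (GRCm38.p6, 250 bases before to 50 after each start) were found for 29 of the 38 genes by symbol, and not for Atf6, Sec61a1, Sec11c, Spcs3, Ssr2, Hyou1, Mzb1, Manf and Derl1. Searched on both strands, 8 of the 29 held the ER stress element, 27.6%, against 37 of 27025 genes with a promoter in the table, 0.137%. The type II element was in 1 of the 29 (Herpud1, the gene it is known from), 3.45%, against 12 of the 27025, 0.0444%. The other pattern, TGACGTG, which contains the ACGTG core of XBP1 and ATF6 binding, was in 3 of the 29 (Hspa5, Txndc5 and Txndc11), 10.3%, against 601 genes, 2.22%. The 38 were listed as genes of the secretory pathway and of this response. The higher shares are therefore a description and no independent support for the list. A match describes letters in a window and is not a bound site. Only exact matches were counted, so a promoter without a match is not shown to lack a variant of the element. The matches are given below for each gene on the strand that reads CCAAT to CCACG (Herpud1: ATTGG to CCACG), with the letters of the pattern in capitals and the free positions in lower case. They are shown because they make visible how much of each element is shared and how much is free.
Hspa5: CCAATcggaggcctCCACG
Hsp90b1, farther from the start: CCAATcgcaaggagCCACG
Hsp90b1, nearer to the start: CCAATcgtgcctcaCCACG
Dnajc3: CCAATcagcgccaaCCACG
Calr: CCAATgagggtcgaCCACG
Canx: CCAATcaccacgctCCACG
Creld2: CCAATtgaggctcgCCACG
Pdia6: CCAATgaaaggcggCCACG
Derl3: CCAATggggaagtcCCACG
Herpud1: ATTGGgCCACG

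The free positions of the ER stress elements differed between all of them, and the elements lay within 212 bases of the annotated start. The first base of the element was 65 bases before the start in Hspa5, 212 and 107 in Hsp90b1, 105 in Dnajc3, 162 in Calr, 145 in Canx, 126 in Creld2, 98 in Pdia6, 156 in Derl3 and 52 in Herpud1. In Hsp90b1 (the nearer copy), Calr, Creld2 and Derl3 the element was on the strand opposite to transcription. The 250 bases before the start are printed for 4 genes on whose levels the results below turn, 5′ to 3′ on the strand of transcription, with the element in capitals. Hspa5 and Hsp90b1 code for the ER's main chaperones, and Derl3 and Herpud1 for ERAD proteins.
Hspa5, chr2:34771840-34772089, plus strand: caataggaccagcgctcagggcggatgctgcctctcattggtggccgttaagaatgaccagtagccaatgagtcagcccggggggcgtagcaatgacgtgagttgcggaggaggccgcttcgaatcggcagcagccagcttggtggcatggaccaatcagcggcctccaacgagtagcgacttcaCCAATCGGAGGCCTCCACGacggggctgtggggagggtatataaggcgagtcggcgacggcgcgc
Hsp90b1, chr10:86705445-86705694, minus strand: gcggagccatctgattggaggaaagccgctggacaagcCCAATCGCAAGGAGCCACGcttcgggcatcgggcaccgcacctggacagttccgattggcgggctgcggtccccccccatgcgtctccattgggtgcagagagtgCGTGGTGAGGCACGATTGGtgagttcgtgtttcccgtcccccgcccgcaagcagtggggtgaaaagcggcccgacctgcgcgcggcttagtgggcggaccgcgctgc
Derl3, chr10:75893148-75893397, plus strand: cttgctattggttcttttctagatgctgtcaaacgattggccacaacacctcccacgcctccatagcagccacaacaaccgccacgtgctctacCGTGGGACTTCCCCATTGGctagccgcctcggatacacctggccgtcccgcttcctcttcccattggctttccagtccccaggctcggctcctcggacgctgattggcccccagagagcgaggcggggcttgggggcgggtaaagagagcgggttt
Herpud1, chr8:94386179-94386428, plus strand: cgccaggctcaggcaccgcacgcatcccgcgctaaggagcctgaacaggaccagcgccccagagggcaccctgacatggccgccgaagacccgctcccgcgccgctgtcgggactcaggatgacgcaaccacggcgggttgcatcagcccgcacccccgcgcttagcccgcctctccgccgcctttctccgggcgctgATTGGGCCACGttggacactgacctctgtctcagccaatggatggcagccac

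Summed over the 38 genes, ER mRNA was a far larger part of plasma cells than of any other class. To keep immunoglobulin itself from setting the scale, shares and CPM are of non-immunoglobulin UMIs, since immunoglobulin took 53.8% and 62.6% of the UMIs of IgA plasma cells. The 38 genes held 4.25% (4.23 to 4.26) of these UMIs in IgA plasma cells of the WT library and 3.98% (3.96 to 3.99) in those of the Ring1AKO library. In IgG plasma cells they held 5.22% (5.14 to 5.30) and 5.61% (5.55 to 5.66). B cells had 0.445% and 0.395%, T cells 0.502% and 0.474% and myeloid cells 0.686% and 0.595%. The log2 ratio over B cells was 3.26 and 3.33 in IgA plasma cells, and 3.55 and 3.83 in IgG plasma cells. Single cells varied around these sums: the 10th percentile, median and 90th percentile over IgA plasma cells were 2.79%, 3.86% and 6.07% in the WT library and 2.64%, 3.64% and 5.39% in the Ring1AKO library. The 10th percentile of IgA plasma cells thus stood above the 90th percentile of B cells (0.631% and 0.556%) and of myeloid cells (1.03% and 0.905%).

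**Figure D1:**
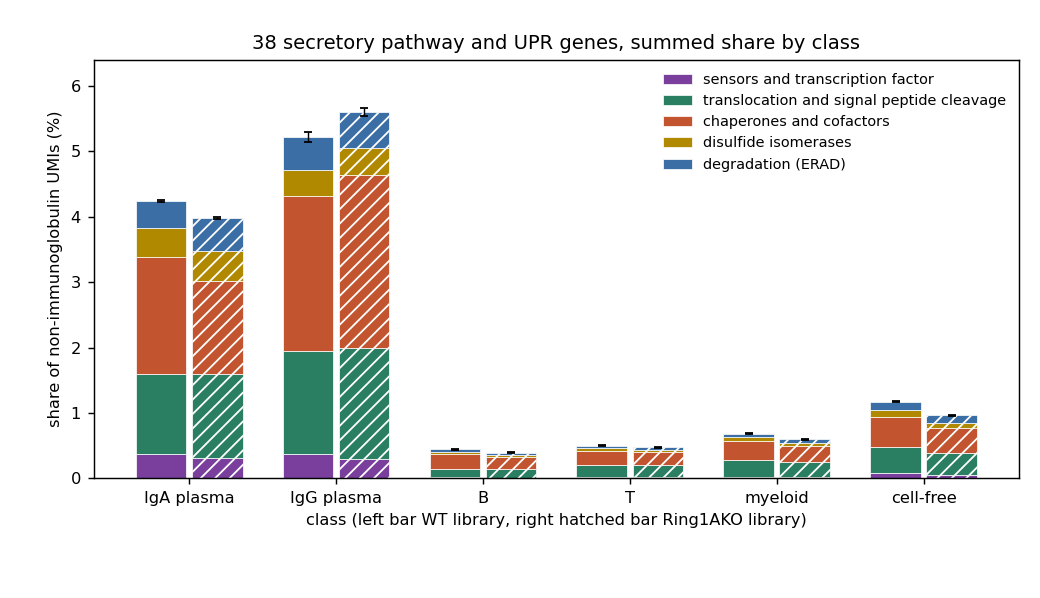
Summed share of the 38 genes, in percent of non-immunoglobulin UMIs, by class of cells and library. Bars are stacked by role and carry exact 95% counting intervals, and the last group is the RNA outside cells. IgA plasma cells stand at 4.25% and 3.98% and IgG plasma cells at 5.22% and 5.61% in the WT and Ring1AKO libraries, and B, T and myeloid cells all lie below 1%.

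Among the remaining classes, plasmacytoid dendritic cells (pDC), secretory cells that release type I interferon, came closest to plasma cells, at 0.984% and 1.196% over 39 and 22 cells. Conventional dendritic cells had 0.745% and 0.656%, monocytes and macrophages 0.704% and 0.658%, NK cells and innate lymphoid cells 0.647% and 0.574%, and mast cells 0.567% and 0.534%. Neutrophils had the lowest share, 0.245% and 0.184%. Immunoglobulin took 4.13% of the UMIs of the 22 pDC of the Ring1AKO library and 0.496% in the WT library, and its part in their share was not tested. RNA outside cells, read from barcodes with fewer than 100 UMIs, held 1.17% and 0.965%, below plasma cells and above every other class except the pDC of the Ring1AKO library. After the cell-free profile was subtracted from each class, the ratio of IgA plasma to B cells was 3.41 and 3.52.

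Gene by gene, 37 of the 38 were higher in IgA plasma than in B cells by a log2 ratio of at least 1 in both libraries, a fold that 14.6% of the 7648 genes tested passed. The median of the 38 was 3.08 and 3.17, and that of all genes tested -0.34 and -0.32. The exception was Canx, which codes for the membrane-bound lectin chaperone calnexin. The plot of plasma over B cell ratios orders the genes by role.

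**Figure D2:**
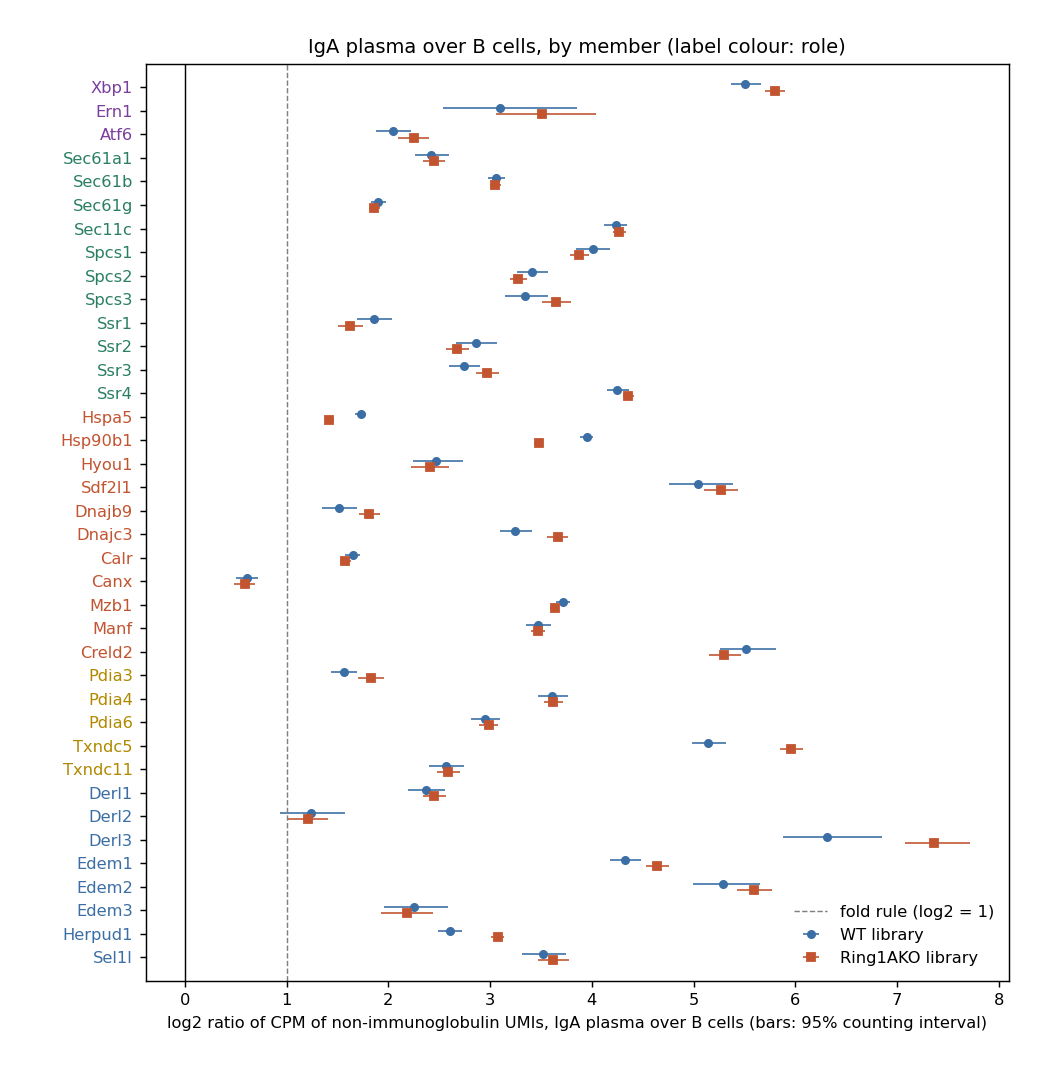
Log2 ratio of CPM in IgA plasma over B cells for each of the 38 genes, by role and library, with exact 95% counting intervals. Derl3 lies highest at 6.31 and 7.37 (WT, Ring1AKO), Canx lowest at 0.61 and 0.59, and all others are above 1.

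Of the sensors and transcription factors, Xbp1 stood out in IgA plasma cells, with 3485 against 76.4 CPM in the WT library and 2972 against 53.5 CPM in the Ring1AKO library, log2 ratios of 5.51 (5.37 to 5.66) and 5.80 (5.70 to 5.90). Its ratio ranked 60 and 60 among the 7648 genes. Ern1, the sensor that splices it, had few UMIs, at 38.4 against 4.30 CPM in the WT library and 31.9 against 2.75 CPM in the Ring1AKO library, log2 ratios of 3.10 (2.53 to 3.86) and 3.51 (3.06 to 4.04). Atf6, the other sensor, had 257 against 62.4 CPM in the WT library and 163 against 34.2 CPM in the Ring1AKO library, log2 ratios of 2.04 (1.87 to 2.22) and 2.25 (2.10 to 2.40). A 3′ count does not tell spliced from unspliced Xbp1 mRNA, so these values are of its amount and not of sensor activity.

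All 11 genes of translocation and signal peptide cleavage were higher in IgA plasma cells. The largest ratio was that of Ssr4, a subunit of the translocon-associated TRAP complex, at 2811 against 147 CPM in the WT library and 3498 against 170.4 CPM in the Ring1AKO library, log2 ratios of 4.25 (4.15 to 4.36) and 4.36 (4.30 to 4.42). Sec11c, a catalytic subunit of the signal peptidase, had 2403 against 128 CPM in the WT library and 2543 against 132 CPM in the Ring1AKO library, log2 ratios of 4.23 (4.12 to 4.35) and 4.27 (4.21 to 4.34). Spcs1, an accessory subunit of that enzyme, had 977 against 60.6 CPM in the WT library and 1020.4 against 69.5 CPM in the Ring1AKO library, log2 ratios of 4.01 (3.85 to 4.18) and 3.88 (3.78 to 3.97). The core of the channel differed less between the classes than these did. Its pore subunit Sec61a1 had log2 ratios of 2.42 and 2.45, its small subunit Sec61g 1.90 and 1.86, and Ssr1, also of the TRAP complex, 1.86 and 1.63. The other 5 (Sec61b, Spcs2, Spcs3, Ssr2 and Ssr3) lay between these groups, so subunits of the same complex did not share a single ratio.

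Chaperones and cofactors had both large and small ratios. Creld2, an ER protein of the stress response with isomerase activity, was at 1000.2 against 21.7 CPM in the WT library and 879.9 against 22.3 CPM in the Ring1AKO library, log2 ratios of 5.51 (5.26 to 5.81) and 5.30 (5.15 to 5.46). Sdf2l1, which forms a complex with BiP and its J-domain partners, had 562 against 16.8 CPM in the WT library and 772 against 20.01 CPM in the Ring1AKO library, log2 ratios of 5.05 (4.75 to 5.39) and 5.27 (5.11 to 5.44). Hsp90b1 codes for GRP94, the ER member of the Hsp90 family, and had 6282 against 406 CPM in the WT library and 3398 against 305 CPM in the Ring1AKO library, log2 ratios of 3.95 (3.89 to 4.01) and 3.48 (3.43 to 3.52). At the other end stood BiP and the lectin chaperones. Hspa5 (BiP) was at 2281 against 688 CPM in the WT library and 1331 against 497 CPM in the Ring1AKO library, log2 ratios of 1.73 (1.68 to 1.78) and 1.42 (1.38 to 1.47). Calr, the soluble lectin chaperone calreticulin, had 1047 against 334 CPM in the WT library and 1041 against 349 CPM in the Ring1AKO library, log2 ratios of 1.65 (1.57 to 1.73) and 1.58 (1.53 to 1.63). Canx was at 296 against 194 CPM in the WT library and 188 against 125 CPM in the Ring1AKO library, log2 ratios of 0.61 (0.50 to 0.72) and 0.59 (0.48 to 0.69), short of the fold in both libraries. Mzb1, a plasma and B cell protein that binds GRP94 and helps antibody assembly, was between these, at 3.72 and 3.63, and B cells had 320.1 and 327 CPM. The remaining 4 (Hyou1, Dnajb9, Dnajc3 and Manf) were all higher in IgA plasma cells.

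Disulfide isomerases, which form and rearrange the bonds that hold antibody chains together, were all higher. Txndc5 had 2093 against 59.0 CPM in the WT library and 2680.3 against 43.0 CPM in the Ring1AKO library, log2 ratios of 5.14 (4.98 to 5.32) and 5.96 (5.85 to 6.07). Pdia4 (ERp72) had log2 ratios of 3.61 and 3.62, Pdia6 (P5) 2.95 and 2.99 and Txndc11 2.56 and 2.59. Pdia3 (ERp57), the partner of calnexin and calreticulin, had 346 against 117 CPM in the WT library and 180.3 against 50.7 CPM in the Ring1AKO library, log2 ratios of 1.56 (1.44 to 1.69) and 1.83 (1.70 to 1.96). The glycoprotein branch of folding, Calr, Canx and Pdia3, gave 3 of the smaller ratios of its roles.

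ERAD genes held the largest ratio of all. Derl3, a derlin of the membrane complex through which misfolded chains leave the ER, was at 589 against 7.23 CPM in the WT library and 877 against 5.25 CPM in the Ring1AKO library, log2 ratios of 6.31 (5.88 to 6.86) and 7.37 (7.07 to 7.71), ranking 29 and 15 among the 7648 genes. In B cells it was at 7.23 and 5.25 CPM, below the 127 and 135 CPM of the RNA outside cells. The part of that RNA in the B cell level, and so in the ratio, was not tested. Edem2, which trims mannose from glycoproteins to mark them for disposal, had 613 against 15.4 CPM in the WT library and 859.7 against 17.8 CPM in the Ring1AKO library, log2 ratios of 5.29 (4.99 to 5.65) and 5.59 (5.42 to 5.77). Its relative Edem1 was at 4.33 and 4.64 and Edem3 at 2.25 and 2.18. The other derlins had smaller ratios than Derl3, 2.37 and 2.45 for Derl1 and 1.24 and 1.21 for Derl2. Herpud1 and Sel1l, which organise the Hrd1 ubiquitin ligase complex, were both higher in IgA plasma cells.

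Against T cells, 33 of the 38 genes were higher in IgA plasma cells by the same fold, which 11.4% of 8360 genes passed, and against myeloid cells 34 were, where the share over 8208 genes was 15%. Ern1 showed the most unlike pattern. It was at 38.4 and 31.9 CPM in IgA plasma cells, 48.5 and 29.4 CPM in T cells, 27.2 and 13.6 CPM in myeloid cells and 207 and 167 CPM in NK and innate lymphoid cells, so the last class stood above plasma cells in both libraries. Hspa5, Canx and Pdia3 were short of the fold against both classes. Derl2 was short of it against T cells, at 0.93 and 1.26.

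Over T cells the largest ratios of their roles were those of Xbp1 (4.86 and 4.89), Ssr4 (3.98 and 4.01), Sec11c (3.77 and 3.79), Spcs1 (3.15 and 2.89), Mzb1 (7.75 and 7.17), Creld2 (5.19 and 4.78), Sdf2l1 (4.46 and 4.57), Txndc5 (6.16 and 6.64), Pdia4 (4.40 and 4.35), Derl3 (6.96 and 7.40), Edem2 (5.25 and 5.43) and Sel1l (3.64 and 3.49). The smallest were Ern1 (-0.33 and 0.12), Ssr1 (1.47 and 1.27), Sec61g (1.67 and 1.64), Sec61a1 (1.91 and 2.0), Canx (0.69 and 0.53), Hspa5 (1.39 and 0.93), Calr (1.57 and 1.37), Pdia3 (0.78 and 0.61), Derl2, Edem3 (1.94 and 1.61) and Derl1 (2.25 and 2.28). Atf6 was at 2.42 and 2.66, Pdia6 at 3.04 and 2.78 and Txndc11 at 3.00 and 2.73.

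Over myeloid cells the picture was similar, with Xbp1 at 4.38 and 4.29, Atf6 at 1.62 and 1.81 and Ern1 at 0.50 and 1.22. The largest ratios of the other roles were those of Sec11c (3.98 and 4.01), Ssr4 (3.43 and 3.47), Spcs3 (3.02 and 3.15), Mzb1 (7.20 and 6.11), Creld2 (4.24 and 4.32), Hsp90b1 (3.39 and 3.11), Txndc5 (5.54 and 5.63), Pdia4 (4.15 and 4.29), Txndc11 (3.59 and 3.52), Derl3 (6.59 and 6.17), Edem2 (4.34 and 4.46) and Sel1l (3.19 and 2.89). The smallest were Ssr3 (1.22 and 1.47), Ssr1 (1.1 and 1.17), Sec61g (1.01 and 1.2), Calr (1.1 and 1.06), Hspa5 (1.13 and 0.70), Canx (0.13 and 0.040), Pdia6 (1.82 and 1.97), Pdia3 (0.33 and 0.71), Herpud1 (2.56 and 2.66), Derl1 (2.19 and 2.26) and Derl2 (1.1 and 1.33). Canx was at 296 and 188 CPM in IgA plasma cells and 269.9 and 183 CPM in myeloid cells, close to each other within each library. By role, the summed ratio of IgA plasma over myeloid cells was smallest for translocation genes, 2.25 and 2.47, and largest for the sensors, 3.77 and 3.90, a sum that is mostly Xbp1.

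Across every class the 4 genes Xbp1, Hspa5, Mzb1 and Derl3 spanned a wide range of patterns. In CPM, Hspa5 was at 2281 and 1331 in IgA plasma cells, 3729 and 3226 in IgG plasma cells, 688 and 497 in B cells, 870.3 and 698 in T cells, 1099 and 1017 in monocytes and macrophages, 989 and 736 in dendritic cells, 728 and 472 in neutrophils, 1052 and 815 in NK and innate lymphoid cells, 989 and 1016 in mast cells and 992 and 893 in pDC. BiP mRNA was thus found in every class, lowest in B cells and neutrophils, and classes next to each other in this order, such as mast cells and pDC, had overlapping values. Xbp1 was at 3485 and 2972 in IgA plasma cells, 3372 and 2764 in IgG plasma cells, 76.4 and 53.5 in B cells, 120.1 and 100.3 in T cells, 183 and 172 in monocytes and macrophages, 147 and 160.3 in dendritic cells, 109 and 53.0 in neutrophils, 139 and 122 in NK and innate lymphoid cells, 120.3 and 147 in mast cells and 418 and 480.4 in pDC, with pDC next after plasma cells. Mzb1 was at 4207 and 4059.8 in IgA plasma cells, 5151 and 8073 in IgG plasma cells, 320.1 and 327 in B cells, 19.5 and 28.2 in T cells, 32.2 and 62.1 in monocytes and macrophages, 22.8 and 59.9 in dendritic cells, 21.2 and 43.8 in neutrophils, 25.8 and 48.3 in NK and innate lymphoid cells, 5.23 and 10.9 in mast cells and 147 and 449 in pDC, high in B cells and in pDC as well, with the RNA outside cells at 917 and 769 CPM. Derl3 was at 589 and 877 in IgA plasma cells, 452 and 887 in IgG plasma cells, 7.23 and 5.25 in B cells, 4.62 and 5.09 in T cells, 5.51 and 11.9 in monocytes and macrophages, 7.88 and 14.8 in dendritic cells, 2.77 and 3.07 in neutrophils, 5.69 and 6.79 in NK and innate lymphoid cells, 0 and 0 in mast cells and 0 and 81.6 in pDC, where 0 is no UMI over the class, which allows up to 3 UMIs. Outside plasma cells Derl3 was highest in the pDC of the Ring1AKO library, the class with the 4.13% of immunoglobulin UMIs given above.

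Cells were also compared after each was thinned to 1000 non-immunoglobulin UMIs. At that depth Xbp1 was found in 92.7% and 88.2% of IgA plasma cells (99.8% and 99.8% unthinned), 8.44% and 5.29% of B cells, 11.9% and 8.66% of T cells and 14.4% and 14.9% of myeloid cells. Hspa5 was found in 76.8% and 66.7% of IgA plasma cells against 55.7% and 50.4% of T cells. Mzb1 was in 92.0% and 91.1% of IgA plasma cells and 24.1% and 26.4% of B cells, and in T cells, which should lack it, in 1.84% and 2.27%. Derl3 was in 38.1% (34.0 to 42.4) and 58.2% (53.5 to 62.8) of IgA plasma cells. It was in 0.808% and 0.436% of B cells, 0.430% and 0.396% of T cells and 0.888% and 1.14% of myeloid cells. Whether these low shares are RNA of the cells or RNA from outside them was not tested. Before thinning the median was 12734 and 13090 such UMIs in IgA plasma cells and 5583 and 5596 in T cells. Thinning left out 1 IgA plasma cell, of the Ring1AKO library, and at most 4 cells of any other of these classes in a library.

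IgG plasma cells, few in number, gave the 38 genes a larger summed share than IgA plasma cells in both libraries at the main settings. At a clustering resolution of 1.2 this order turned in the WT library. There the log2 ratio of the summed share over B cells was 3.02 for IgG and 3.19 for IgA plasma cells. At that resolution a cluster of 114 and 93 cells led by genes of dividing cells, such as Mki67, was named plasma. At the main settings a cluster of 156 and 141 cells led by such genes was unnamed and outside the plasma class. The part of these cells in the order was not tested. Of the 37 genes with at least 100 UMIs over IgG plasma and B cells, 36 were higher in IgG plasma cells in both libraries, where 11.4% of 5500 genes were. Canx was short of the fold in the WT library, at 0.86 and 1.04, and Ern1 had too few UMIs. Over B cells Xbp1 was at 5.46 and 5.69, Atf6 at 2.20 and 2.26, Ssr4 at 4.84 and 4.68, Creld2 at 5.48 and 6.19, Txndc5 at 4.0 and 4.58 and Derl3 at 5.94 and 7.38. Compared over the 5 classes of IgA plasma, IgG plasma, B, T and myeloid cells, 31 genes in the WT and 32 in the Ring1AKO library were highest in IgG plasma cells, and 6 in each were highest in IgA plasma cells. The same count was not made over all genes, so it is not a result about the 38. Over all 5285 genes tested, the median log2 ratio of IgG over IgA plasma cells was also above 0, at 0.18 and 0.16. Ern1 was highest in T cells in the WT library. For the remaining genes at the ends of their roles, Sec11c was at 4.40 and 4.64, Spcs1 at 4.21 and 4.03, Sec61a1 at 2.74 and 2.86, Ssr1 at 2.35 and 2.06, Sec61g at 2.05 and 2.24, Sdf2l1 at 5.10 and 5.65, Hsp90b1 at 4.43 and 4.6, Dnajb9 at 2.27 and 2.22, Calr at 1.99 and 2.12, Pdia4 at 3.99 and 4.31, Pdia6 at 3.45 and 3.59, Txndc11 at 2.93 and 3.17, Pdia3 at 1.95 and 2.62, Edem2 at 5.55 and 5.67, Edem1 at 4.68 and 5.18, Derl1 at 2.69 and 2.86, Edem3 at 2.55 and 2.48 and Derl2 at 1.23 and 1.47.

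Set directly against IgA plasma cells, IgG plasma cells had 3 genes higher and 1 lower by a log2 ratio of at least 0.5 in both libraries, beside 6.79% and 2.8% of the 5285 genes tested. At 7.89% and 2.63% of the 38, these counts were near the shares of all genes and are no result about the 38. Ssr2, a TRAP subunit, was at 634 against 322 CPM in the WT library and 939 against 379.9 CPM in the Ring1AKO library, log2 ratios of 0.98 (0.76 to 1.19) and 1.31 (1.17 to 1.44). Hspa5 had 3729 against 2281 CPM in the WT library and 3226 against 1331 CPM in the Ring1AKO library, log2 ratios of 0.71 (0.62 to 0.80) and 1.28 (1.21 to 1.35). Manf, a small ER protein of the stress response, had log2 ratios of 0.51 and 0.71. Txndc5 went the other way and was the gene furthest from the rest, at 944 against 2093 CPM in the WT library and 1026 against 2680.3 CPM in the Ring1AKO library, log2 ratios of -1.14 (-1.32 to -0.98) and -1.38 (-1.50 to -1.27). The other isomerases were above 0 in both libraries, as was the median of all genes, and all were short of the fold in the WT library. Pdia3 was at 0.38 and 0.79, Pdia4 at 0.38 and 0.69 and Txndc11 at 0.37 and 0.59. Pdia6, at 0.50 and 0.61, was just short of the fold in the WT library. Hsp90b1 was at 0.48 and 1.12 and Mzb1 at 0.29 and 0.99. Xbp1 was at -0.046 and -0.10, Atf6 at 0.16 and 0.0089, Sec61b at 0.43 and 0.53, Dnajc3 at -0.007 and -0.031, Edem1 at 0.36 and 0.54 and Derl3 at -0.37 and 0.019. The median of the 38 was 0.31 and 0.40, against 0.18 and 0.16 over all genes, and J chain, a protein of polymeric IgA, took less of the non-immunoglobulin UMIs of IgG plasma cells (75801 and 51196 CPM against 134354 and 164631 CPM). Its part in these ratios was not tested. The neutrophil markers summed to 56.1 and 888 CPM in IgG plasma cells. Elsewhere among the highest and lowest of each role, Ern1 was at -0.087 and -0.041, Ssr1 at 0.49 and 0.44, Sec61g at 0.15 and 0.38, Spcs1 at 0.20 and 0.16, Spcs2 at 0.14 and 0.17, Hyou1 at 0.54 and 0.16, Sdf2l1 at 0.055 and 0.38, Sel1l at 0.55 and 0.34, Derl1 at 0.31 and 0.41, Derl2 at -0.0099 and 0.26 and Herpud1 at 0.15 and -0.25.

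Within the IgA plasma cells the ER genes did not all follow the immunoglobulin load. Cells of each library were split into 4 bins of equal cell number by the share of their UMIs that was immunoglobulin, below 47.3% in the lowest and above 59.9% in the highest bin of the WT library, and below 56.6% and above 67.5% in those of the Ring1AKO library. The share of immunoglobulin UMIs is part of the same cells' counts, and the values are a description. From the lowest to the highest bin the summed share of the 38 genes went from 4.73% to 4.01% in the WT library and from 3.98% to 4.11% in the Ring1AKO library. Counted by sign alone, with no fold required, 13 genes were higher in the highest bin than in the lowest in both libraries. Another 18 were lower in both. Some of these differences were small, as for Manf at 1403.5 and 1383 CPM in the Ring1AKO library. Genes outside the 38 were not counted in this way, so the counts are not a result about the 38. Xbp1 was at 2436 CPM in the lowest and 4446 CPM in the highest bin of the WT library and at 2493 and 3346 CPM in the Ring1AKO library. Sec11c, Spcs1, Spcs2, Ssr4, Txndc5 and Edem2 were higher in the highest bin of both libraries too. By the same count of signs, 8 of the 11 chaperones and cofactors were lower in the highest bin of both libraries. Dnajc3 was higher in both, and Creld2 and Dnajb9 were lower in the WT and higher in the Ring1AKO library. Hspa5 was at 3372 CPM in the lowest and 1435 CPM in the highest bin of the WT library, and at 1484 and 1336 CPM in the Ring1AKO library. Hsp90b1 went from 8635 to 4873 CPM and from 3925 to 2897 CPM. Calr went from 1469 to 743 CPM and from 1224 to 942 CPM. The gap between the libraries in Hspa5 and Hsp90b1 was widest in the lowest bins. These bins were cut within each library and held cells of unlike immunoglobulin share, 9.01 to 47.3% in WT and 18.6 to 56.6% in Ring1AKO. The part of this difference in the gap was not tested. The T cell markers summed to 92.0 and 58.0 CPM in the lowest and highest bins of the WT library and to 146 and 30.9 CPM in those of the Ring1AKO library, and the plasma markers to 88480 and 175162 CPM and to 115485 and 199451 CPM. The median depth was 23120 and 34191 UMIs per cell in these bins of the WT library and 26343 and 41282 in the Ring1AKO library. J chain, one of the plasma markers, was kept in the denominator of these CPM. The part of depth, of J chain and of the other markers was not tested.

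**Figure D3:**
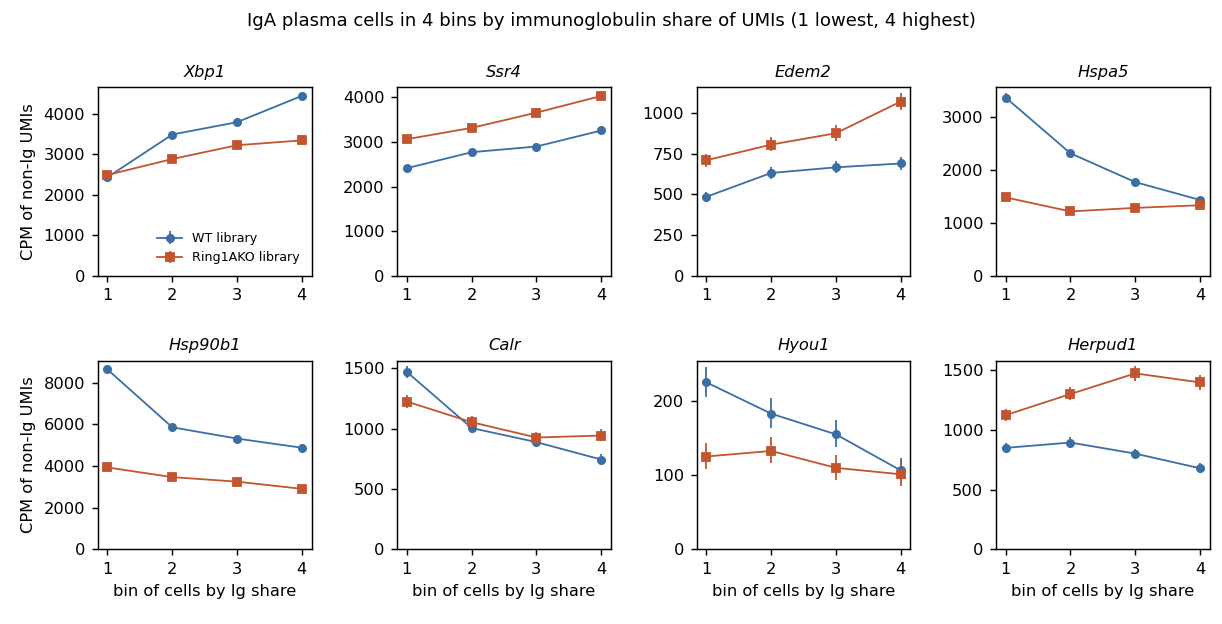
Level in CPM of named genes in IgA plasma cells split into 4 bins of equal cell number by the immunoglobulin share of their UMIs, for both libraries, with exact 95% counting intervals. Xbp1 is higher in the highest than in the lowest bin of both libraries (2436 to 4446 CPM in WT), while Hspa5 is at 3372 CPM in the lowest and 1435 CPM in the highest bin in WT, and at 1484 and 1336 CPM in Ring1AKO.

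Between the libraries the summed share of the 38 genes differed little. The log2 ratio of the Ring1AKO over the WT library was -0.095 (-0.10 to -0.087) in IgA plasma cells, 0.10 (0.077 to 0.13) in IgG plasma cells, -0.17 (-0.19 to -0.15) in B cells, -0.083 (-0.10 to -0.065) in T cells and -0.20 (-0.22 to -0.19) in myeloid cells. In IgA plasma cells the sums of the roles differed in direction. Chaperones and cofactors were at -0.34 (-0.35 to -0.32) and sensors at -0.26 (-0.28 to -0.23), while ERAD genes were at 0.23 (0.21 to 0.26), isomerases at 0.083 (0.061 to 0.11) and translocation genes at 0.070 (0.056 to 0.084). The sums of chaperones and of ERAD genes each rested on a pair of genes, picked out after their values were seen: without Hsp90b1 and Hspa5 the other 9 chaperones and cofactors were at 0.020 (0.0043 to 0.036), with 4 above 0 and 5 below, and without Herpud1 and Derl3 the other 6 ERAD genes were at -0.025 (-0.054 to 0.0039). In IgG plasma cells chaperones were at 0.16 (0.12 to 0.20) and ERAD genes at 0.16 (0.076 to 0.25). With fewer than 4000 genes per cell, or an isotype share over 90%, the summed ratio in IgG plasma cells turned to -0.020 and -0.031. With all UMIs as the denominator the summed ratio in IgA plasma cells was -0.40. J chain was kept in the denominator of these shares. By the CPM given above it was higher in the Ring1AKO library in IgA plasma cells and lower there in IgG plasma cells. Its part in these ratios was not tested.

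In IgA plasma cells 3 genes were higher and 7 lower in the Ring1AKO library by a log2 ratio of at least 0.5, beside 4.21% and 15.9% of the 7480 genes tested. With all UMIs as the denominator 0 were higher and 13 lower. Herpud1 had 810.4 CPM in the WT and 1320.1 CPM in the Ring1AKO library, a log2 ratio of 0.70 (0.66 to 0.75), Derl3 589 CPM in the WT and 877 CPM in the Ring1AKO library, a log2 ratio of 0.57 (0.52 to 0.63) and Dnajb9, the J-domain protein ERdj4, 189.5 CPM in the WT and 278 CPM in the Ring1AKO library, a log2 ratio of 0.55 (0.45 to 0.65). The 7 lower genes included BiP and GRP94. Hsp90b1 had 6282 CPM in the WT and 3398 CPM in the Ring1AKO library, a log2 ratio of -0.89 (-0.91 to -0.86). Hspa5 had 2281 CPM in the WT and 1331 CPM in the Ring1AKO library, a log2 ratio of -0.78 (-0.82 to -0.74). Hyou1, a large relative of BiP, had 170.1 CPM in the WT and 117 CPM in the Ring1AKO library, a log2 ratio of -0.53 (-0.67 to -0.40). Canx and Pdia3, which act together on glycoproteins, were at -0.66 and -0.94. Atf6 was at -0.66 and Edem3 at -0.71. Hspa5, Hsp90b1, Derl3 and Herpud1 all carry an element in the promoters printed above, Hspa5 and Hsp90b1 being lower and Derl3 and Herpud1 higher. The 9 genes with an element had a median of -0.10 (from -0.89 to 0.70), and the 20 whose promoter held no exact match a median of -0.13. The part of the element in these ratios was not tested. The other genes of the rule lay between, with Xbp1 at -0.23, Ern1 at -0.27, Ssr4 at 0.32, Ssr3 at -0.26, Sdf2l1 at 0.46, Manf at 0.20, Txndc5 at 0.36, Edem2 at 0.49 and Sel1l at -0.33. Of the other genes at the ends of their roles, Ssr2 was at 0.24, Spcs2 at 0.18, Ssr1 at -0.19, Sec61g at -0.20, Txndc11 at -0.072, Pdia6 at -0.10, Pdia4 at -0.16 and Edem1 at -0.26.

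**Figure D4:**
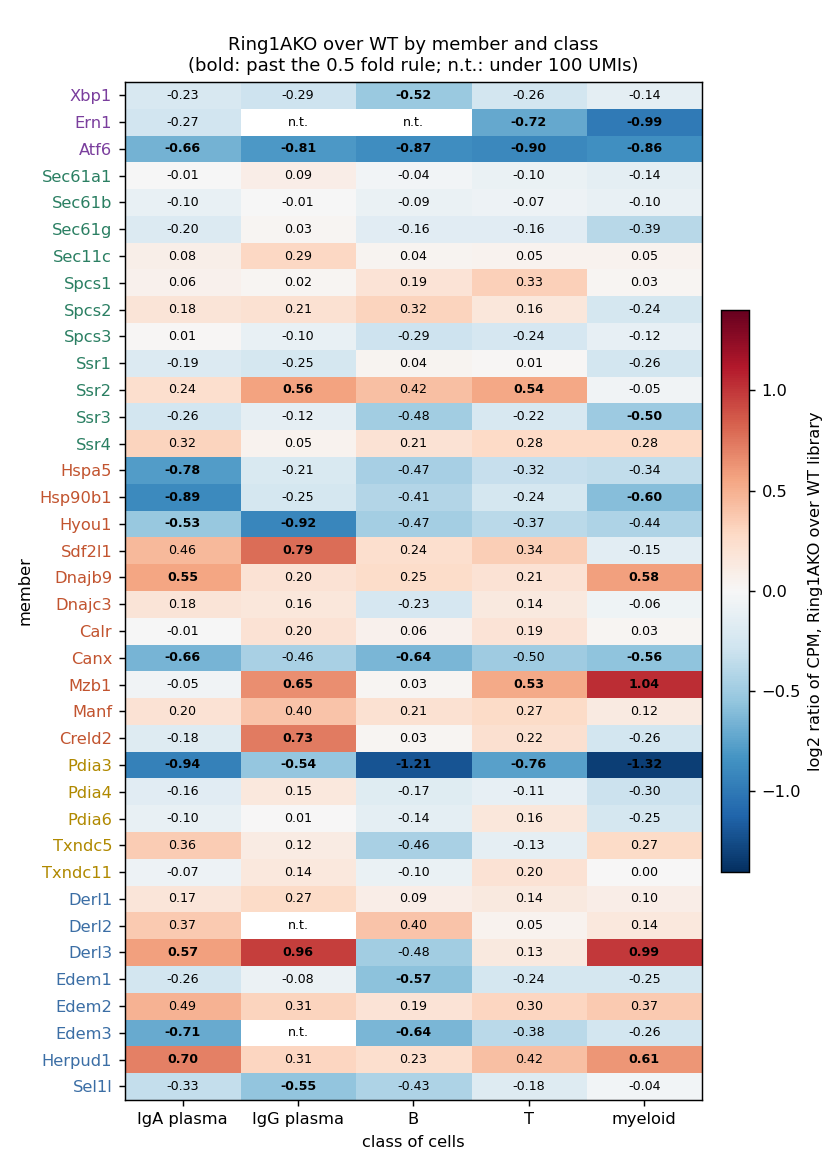
Log2 ratio of CPM of the Ring1AKO over the WT library for each of the 38 genes (rows) in IgA plasma, IgG plasma, B, T and myeloid cells (columns), with bold values at or past 0.5 in size and n.t. where both libraries held fewer than 100 UMIs in sum. Atf6 and Pdia3 are below -0.5 in all 5 classes, and in IgA plasma cells Hspa5 (-0.78) and Hsp90b1 (-0.89) are low while Herpud1 (0.70) and Derl3 (0.57) are high. Of all genes tested in IgA plasma, B, T and myeloid cells, 4.56% are lower by the fold in each of these classes.

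Because the IgA plasma cells of the Ring1AKO library carried more immunoglobulin, they were also compared among cells with 50 to 65% immunoglobulin UMIs, limits set once the data were known. These were 299 and 230 cells with a summed share of 4.0% and 3.97%. The match was partial: immunoglobulin took 57.4% and 60.1% of their UMIs, and the median depth was 29100 and 34804.5 UMIs per cell. There Hspa5 was at -0.31 (-0.36 to -0.26), Hyou1 at -0.21, Canx at -0.49 and Edem3 at -0.45, all 4 short of the fold. Hsp90b1 was at -0.51, Pdia3 at -0.76 and Atf6 at -0.60, still past it. Herpud1 was at 0.85, Sdf2l1 at 0.73, Derl3 at 0.71 and Dnajb9 at 0.70. The low value of Hspa5 was smaller in size in this window, and the high values of Herpud1, Derl3 and Sdf2l1 were larger. The low values of Xbp1 and Ern1 were larger in size there, at -0.47 and -0.40. The part of immunoglobulin load in these shifts was not tested. With all UMIs as the denominator, Dnajb9, Derl3 and Herpud1 in IgA plasma cells were at 0.25, 0.27 and 0.40, below the fold.

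In IgG plasma cells 5 of 35 genes tested were higher in the Ring1AKO library and 4 lower, beside 13.6% and 15.3% of 1107 genes. Derl3 was at 452 CPM in the WT and 887 CPM in the Ring1AKO library, a log2 ratio of 0.96 (0.70 to 1.25). Sdf2l1 was at 0.79, Creld2 at 0.73, Mzb1 at 0.65 and Ssr2 at 0.56. Hyou1 was at 244 CPM in the WT and 129 CPM in the Ring1AKO library, a log2 ratio of -0.92 (-1.39 to -0.44). Atf6 was at -0.81, Sel1l at -0.55 and Pdia3 at -0.54. These values rest on 23 and 42 cells, between which the neutrophil markers differed as given above, and the part of those markers was not tested. Among the others Xbp1 was at -0.29, Hsp90b1 at -0.25, Hspa5 at -0.21, Pdia4 at 0.15 and Edem2 at 0.31. Of the other genes at the ends of their roles, Sec11c was at 0.29, Spcs2 at 0.21, Spcs3 at -0.10, Ssr3 at -0.12, Ssr1 at -0.25, Canx at -0.46, Txndc11 at 0.14, Txndc5 at 0.12, Pdia6 at 0.0063, Herpud1 at 0.31, Derl1 at 0.27 and Edem1 at -0.077.

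B cells had 0 genes higher and 6 of 37 lower in the Ring1AKO library, beside 3.33% and 18.8% of 8406 genes. Pdia3 was at 117 CPM in the WT and 50.7 CPM in the Ring1AKO library, a log2 ratio of -1.21 (-1.36 to -1.05). Atf6 was at -0.87, Canx at -0.64, Edem3 at -0.64, Edem1 at -0.57 and Xbp1 at -0.52. Centred on the median of all genes, which was -0.15 in B cells, 2 genes were higher and 2 lower (Atf6 and Pdia3). Hspa5 and Hyou1 were short of the fold at -0.47 and -0.47, Ssr3 at -0.48, and Ssr2 had the highest value, 0.42. Of the other genes at the ends of their roles, Spcs2 was at 0.32, Ssr4 at 0.21, Sec61g at -0.16, Spcs3 at -0.29, Dnajb9 at 0.25, Sdf2l1 at 0.24, Manf at 0.21, Txndc11 at -0.096, Pdia6 at -0.14, Pdia4 at -0.17, Txndc5 at -0.46, Derl2 at 0.40, Herpud1 at 0.23, Edem2 at 0.19 and Derl3 at -0.48.

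T cells had 2 genes higher and 3 lower, beside 5.6% and 12.4% of 8874 genes. There Ssr2 was at 0.54 and Mzb1 at 0.53, while Atf6 was at -0.90, Pdia3 at -0.76 and Ern1 at -0.72. Mzb1 in T cells was at 19.5 and 28.2 CPM, and the B cell markers summed to 118 and 442 CPM in these T cells, whose part was not tested. Of the other genes at the ends of their roles, Xbp1 was at -0.26, Spcs1 at 0.33, Ssr4 at 0.28, Sec61g at -0.16, Ssr3 at -0.22, Spcs3 at -0.24, Sdf2l1 at 0.34, Manf at 0.27, Hspa5 at -0.32, Hyou1 at -0.37, Canx at -0.50 (just short of the fold), Txndc11 at 0.20, Pdia6 at 0.16, Pdia4 at -0.11, Txndc5 at -0.13, Herpud1 at 0.42, Edem2 at 0.30, Derl1 at 0.14, Sel1l at -0.18, Edem1 at -0.24 and Edem3 at -0.38.

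Myeloid cells had 4 genes higher and 6 lower in the Ring1AKO library, beside 8.27% and 16.9% of 8987 genes. Mzb1 was at 28.6 CPM in the WT and 58.7 CPM in the Ring1AKO library, a log2 ratio of 1.04 (0.86 to 1.21). Derl3 was at 6.04 CPM in the WT and 12.0 CPM in the Ring1AKO library, a log2 ratio of 0.99 (0.60 to 1.39). Immunoglobulin took 0.992% and 2.02% of the UMIs of these cells, and the summed plasma markers were at 1279 and 2190 CPM, both higher in the Ring1AKO library. The median plasma marker was not higher there, at 32.3 and 30.8 CPM. The B cell markers were higher there, with sums of 133 and 424 CPM and a median marker at 9.52 and 25.6 CPM. The part of the B cell markers in the values of Mzb1 and Derl3 was not tested. Mzb1 and Derl3 were far below their levels in the RNA outside cells, 917 and 769 CPM for Mzb1 and 127 and 135 CPM for Derl3, and the part of free RNA in their ratios was not tested. Herpud1 was at 0.61 and Dnajb9 at 0.58. On the lower side Pdia3 was at 275 CPM in the WT and 110.1 CPM in the Ring1AKO library, a log2 ratio of -1.32 (-1.42 to -1.23). Ern1 was at -0.99, Atf6 at -0.86, Hsp90b1 at -0.60, Canx at -0.56 and Ssr3 at -0.50. The make-up of the myeloid class differed, with 221 and 251 neutrophils among 1694 and 1144 cells. Within monocytes and macrophages Pdia3 was at -1.23, Atf6 at -0.70, Ern1 at -0.54, Dnajb9 at 0.71 and Mzb1 at 0.95, and Hsp90b1 was at -0.29, short of the fold. Of the other genes at the ends of their roles, Xbp1 was at -0.14, Ssr4 at 0.28, Sec11c at 0.050, Spcs1 at 0.027, Ssr1 at -0.26, Sec61g at -0.39, Manf at 0.12, Hyou1 at -0.44, Txndc5 at 0.27, Txndc11 at 0.0016, Pdia6 at -0.25, Pdia4 at -0.30, Edem2 at 0.37, Sel1l at -0.037, Edem1 at -0.25 and Edem3 at -0.26.

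Atf6 and Pdia3 were the 2 genes of 37 that were lower by the fold in each of IgA plasma, B, T and myeloid cells, where 4.56% of genes tested in all 4 were. At 5.41% of the 37, this count was near that share and is no result about the 38. No gene of the 37 was higher by the fold in all 4 classes, where 0.165% were, a share too low to be read in 37 genes. Atf6 went from 257 to 163 CPM in IgA plasma cells, from 62.4 to 34.2 in B cells, from 48.0 to 25.6 in T cells and from 83.9 to 46.3 in myeloid cells. Pdia3 went from 346 to 180.3, from 117 to 50.7, from 201 to 118 and from 275 to 110.1 CPM. In the RNA outside cells Atf6 was at 79.7 and 51.6 CPM and Pdia3 at 134 and 87.9 CPM, so both were lower there too. Genotype and library preparation cannot be told apart in these values. In the 5 classes of IgA plasma, IgG plasma, B, T and myeloid cells the share of the genes tested among the 38 that were higher was 7.89%, 14.3%, 0%, 5.26% and 10.5%, and that of the genes that were lower was 18.4%, 11.4%, 16.2%, 7.89% and 15.8%, most of them near the shares of all genes given above. The median of the 38 was -0.062, 0.088, -0.096, 0.031 and -0.13, against -0.080, 0.083, -0.15, -0.039 and -0.11 over all genes. In sign alone, 9 of the 37 were higher and 15 lower in all 4 classes, beside 956 and 2273 of 6664 genes.

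Other genes of the secretory route and of neighbouring stress programmes were read in the same way. Of the 10 genes of the oligosaccharyltransferase, which attaches glycans to nascent chains, 8 were higher in IgA plasma than in B cells by the fold, which 14.6% of the 7648 genes tested passed, with Ddost at 3.45 and 3.33 and Stt3b, a catalytic subunit, at -1.22 and -0.92. Of 7 genes of the signal recognition particle and its receptor 5 were, and of 16 genes of COPII vesicles and cargo receptors 14 were, with Sec24d at 4.6 and 5.12 and Lman1 at 4.92 and 4.66. Kdelr3, which returns escaped ER proteins, had 224 and 190 UMIs in IgA plasma cells and 1 and 2 in B cells, so its log2 ratios of 6.26 and 7.31 have wide counting intervals, 4.76 to 12.6 and 6.02 to 10.9. Of 14 further oxidoreductases and ERAD genes 13 were higher, with Fkbp11 at 7.10 and 6.77 and Prdx4, an ER peroxiredoxin, at 5.42 and 5.53. The PERK-ATF4 arm of the stress response had 2 of 8 higher, Chac1 at 6.35 and 7.33 and Asns at 5.48 and 6.07, while Ddit3 (CHOP), the factor of terminal ER stress, was at 0.11 and 0.30 and Atf4 at 0.51 and 0.65. Of 9 heat shock genes, not all of them cytosolic, 0 were higher and 3 lower. The share of all genes lower by this fold was not counted, so the count is no result about heat shock genes. The median of all genes tested was itself -0.34 and -0.32. Hspa1b was at -1.48 and -1.43, Hspe1, of the mitochondria, at -1.27 and -1.14 and Hspa1a at -1.21 and -1.07. The pair of Hspa1 genes are near-identical copies whose split is uncertain. Both were also the leading genes of a cluster of 652 and 1801 B cells, and the part of that cluster in these ratios was not tested. The medians were 2.32 and 2.31 for the oligosaccharyltransferase, 1.42 and 1.55 for the signal recognition particle, 2.30 and 2.25 for COPII, 2.22 and 2.38 for the further ER genes, 0.46 and 0.65 for the PERK-ATF4 arm and -0.76 and -0.84 for heat shock. Plasma cell regulators, some of which also named the cluster, had 9 of 10 higher, with a median of 4.79 and 5.12.

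Between the libraries few genes of these lists passed the fold in IgA plasma cells, where 4.21% of the 7480 genes tested were higher and 15.9% lower. The lists are too short to set their counts against these shares. The oligosaccharyltransferase had 0 of 10 past the fold of 0.5 in either direction, the further oxidoreductases and ERAD genes 0 of 14, and heat shock 0 of 9. COPII had Kdelr2 higher, at 0.50, and the PERK-ATF4 arm had Cebpb, at 0.58. Ell2, the elongation factor that favours secretory immunoglobulin mRNA, was lower at -0.75 in IgA plasma cells, and also in IgG plasma cells (-1.02), B cells (-0.86) and T cells (-0.54). Srp54a, the GTPase subunit of the signal recognition particle, went from 55.2 to 18.8 CPM in IgA plasma cells, a log2 ratio of -1.55, and was at -1.2 in B, -1.22 in T and -1.06 in myeloid cells. Srp54a has near-identical copies in the mouse genome, and how reads were split between them is uncertain. Srpr, the receptor subunit, was at -0.51 in IgA plasma cells. In IgG plasma cells Ddost was at 1.06, Sar1b at 0.84, Fkbp11 at 0.80 and Eif2ak3 (PERK) at -1.14, and 3 of 9 heat shock genes were lower (Dnajb1 -1.12, Dnaja1 -1.11 and Hsph1 -0.95), in a class where 15.3% of all genes tested were. In B cells Erlec1, an ERAD lectin, was at -0.74, and in myeloid cells at -0.81. Among T cells the KDEL receptors Kdelr1 and Kdelr2 were higher, at 0.59 and 0.56. In myeloid cells 1 of 10 oligosaccharyltransferase genes, 1 of 7 of the signal recognition particle, 1 of 15 of COPII and 3 of 13 further ER genes were lower and 0 of each were higher, beside 16.9% and 8.27% of all genes tested.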

How the data were processed

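Unfiltered matrices of 2 libraries from 10x 3′ chemistry, 1 per genotype, were deposited as raw UMI counts per gene and barcode, with no normalization. The sources differ on how the authors made them: the file headers name Cell Ranger 4, the paper another version with mm10, and the submitters' processing notes Cell Ranger 6.0.2, Seurat and mm39. The kit version also differs between them, and the paper gives a slightly wider age range than the labels. The WT matrix held 74414511 UMIs in 2974251 barcodes and the Ring1AKO matrix 81862096 in 2778823.

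Cells were integrated and clustered in R 4.3.3 with Seurat 5.3.0 (2000 variable genes, 25 principal components, resolution 0.7), without the 38 genes, immunoglobulin and T-cell-receptor variable genes. Clusters were named from at least 3 detected markers. Clusters in which the median marker of another lineage stood at 20% or more of its mean level in that lineage's own cells were left out as mixed, a limit set after the clusters were seen. Plasma cells with at least 10 heavy-chain constant UMIs, over 50% of one kind, were IgA or IgG. Scrublet called 2 and 1 cells, too few to have worked, so doublets were kept and the highest 8% of scores (480 and 633 cells) were left out as an alternative.

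Counts were summed per class and scaled to non-immunoglobulin UMIs (CPM, 390 immunoglobulin genes left out, J chain kept). Ratios had 1 UMI added and needed at least 100 UMIs over both sides. A log2 ratio of 1 between classes, or 0.5 between libraries and between isotypes, in place of a test, was the fold used. The remaining steps ran in Python 3.11.15 (SciPy 1.17.1, Scanpy 1.11.5, NumPy 2.4.6, Matplotlib 3.10.9, pandas 2.3.3). The ratios and intervals were run on simulated counts with a planted log2 ratio of 1, drawn from the counting model that the intervals assume. That run held no spread between cells, mice or libraries, so it checks the computation only. Named genes are, per role and comparison, the 3 largest and 3 smallest ratios (all of a small role), and Xbp1, Hspa5, Mzb1 and Derl3 in every class, with up to 4 genes per pathway list. The 38 genes, the marker and pathway lists and these rules were chosen with earlier results of these data known. Other values given were chosen after they were seen. Alternatives changed the filters, the denominator, cell-free RNA (3.82% and 4.31% of UMIs removed), clustering and isotype limits.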

Additional observations from a re-analysis of the deposited data

Results flagged for a closer look

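The results given here are some of those where libraries differed one way in one class of cells and the other way in another. The list is not complete. Derl3 and Txndc5, for example, were higher in IgA plasma and lower in B cells of the Ring1AKO library, with the values given above. With 1 library per genotype none of these differences between classes was tested, and each is a description of these libraries. The summed share of the 38 genes had a log2 ratio of Ring1AKO over WT of 0.10 in IgG plasma cells, against -0.095 in IgA plasma cells, -0.17 in B cells, -0.083 in T cells and -0.20 in myeloid cells. The value in IgG plasma cells rests on 23 and 42 cells and changed sign under alternatives given in the next part. J chain, kept in the denominator, was higher in the Ring1AKO library in IgA plasma cells and lower in IgG plasma cells. Its part in this contrast was not tested.

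Sdf2l1, a partner of BiP, was at 0.46 in IgA plasma, 0.79 in IgG plasma and 0.34 in T cells, against -0.15 in myeloid cells. Mzb1, the antibody assembly cofactor, was at 0.65 in IgG plasma, 0.53 in T and 1.04 in myeloid cells, against -0.052 in IgA plasma cells. In the myeloid cells the share of immunoglobulin UMIs was 0.992% in WT and 2.02% in Ring1AKO. The B cell markers summed to 133 and 424 CPM in myeloid cells and to 118 and 442 CPM in T cells. The part of immunoglobulin and of these markers in the values of Mzb1 was not tested. Creld2 was at 0.73 in IgG plasma cells, against -0.18 in IgA plasma and -0.26 in myeloid cells.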

How the results depend on the processing

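No paired analysis was possible because each genotype had a single library, and for the same reason no library could be left out. The count of genes higher in IgA plasma over B cells ran from 28 to 37 over the alternatives. Over all alternatives 243 values of the shares and counts stayed close to the value reported, 88 moved by more than their counting interval or 1.5 times, and 2 changed sign, both the summed ratio of the libraries in IgG plasma cells. Of the values of single genes, 669 stayed on the same side of the fold and 51 fell short of it. In what follows, over B means the log2 ratio of the summed share over B cells, between libraries the log2 ratio of the Ring1AKO over the WT library, and counts the number of the 38 genes past the fold between the libraries. The settings with the mixed clusters and with 50 to 65% immunoglobulin UMIs were added after the data were seen. With a mitochondrial limit of 3%: IgA over B 3.28 (WT) and 3.34 (Ring1AKO), IgG over B 3.59 (WT), between libraries -0.0588 (T), counts 1 (B higher), 1 (T higher). With fewer than 4000 genes per cell: IgA over B 3.31 (Ring1AKO), IgG over B 3.61 (WT) and 3.75 (Ring1AKO), between libraries -0.12 (IgA), -0.020 (IgG), -0.23 (myeloid). With the highest 8% of doublet scores left out: IgA over B 3.37 (Ring1AKO), between libraries -0.073 (IgA), -0.050 (T), -0.19 (myeloid), counts 1 (T higher). With all UMIs as the denominator: IgA over B 2.16 (WT) and 1.93 (Ring1AKO), IgG over B 2.52 (WT) and 2.78 (Ring1AKO), between libraries -0.40 (IgA), -0.22 (myeloid), counts 0 (IgA higher), 13 (IgA lower). With no ribosomal or mitochondrial UMIs in the denominator: IgA over B 3.02 (WT) and 3.01 (Ring1AKO), IgG over B 3.32 (WT) and 3.57 (Ring1AKO), between libraries 0.16 (IgG), -0.087 (B), -0.048 (T), -0.17 (myeloid), counts 2 (IgG lower), 1 (B higher). With the mean over cells: IgA over B 3.32 (Ring1AKO), IgG over B 3.78 (Ring1AKO), between libraries -0.10 (IgA), 0.052 (IgG), -0.041 (T), -0.26 (myeloid), counts 2 (myeloid higher). With the cell-free profile subtracted: IgA over B 3.41 (WT) and 3.52 (Ring1AKO), IgG over B 3.70 (WT) and 4.0 (Ring1AKO), between libraries -0.060 (IgA), counts 5 (IgA higher), 1 (T higher). With no integration: IgA over B 3.22 (WT) and 3.28 (Ring1AKO), IgG over B 3.86 (Ring1AKO), between libraries -0.11 (IgA), 0.14 (IgG), -0.064 (T). With a resolution of 0.4: IgA over B 3.21 (WT) and 3.26 (Ring1AKO), IgG over B 3.80 (Ring1AKO), between libraries -0.12 (IgA), -0.17 (myeloid). With a resolution of 1.2: IgA over B 3.19 (WT) and 3.21 (Ring1AKO), IgG over B 3.02 (WT) and 3.37 (Ring1AKO), between libraries -0.15 (IgA), 0.17 (IgG), counts 1 (T higher). With the 38 genes and immunoglobulin in the clustering: IgA over B 3.23 (WT) and 3.31 (Ring1AKO), IgG over B 3.85 (Ring1AKO), between libraries 0.14 (IgG), -0.051 (T), -0.24 (myeloid). With an isotype share over 90%: IgG over B 3.61 (WT) and 3.75 (Ring1AKO), between libraries -0.031 (IgG). With ratios centred on the median of all genes: counts 5 (IgA higher), 2 (B higher), 2 (B lower), 3 (myeloid lower). With the mixed clusters kept: IgA over B 3.12 (WT) and 3.19 (Ring1AKO), IgG over B 3.47 (WT) and 3.78 (Ring1AKO), between libraries -0.11 (IgA), 0.14 (IgG), counts 2 (IgG lower). With IgA plasma cells of 50 to 65% immunoglobulin UMIs: IgA over B 3.17 (WT), between libraries -0.010 (IgA), counts 3 (IgA lower). The cause of these shifts was not tested. The 23 and 42 IgG plasma cells held 303055 and 610063 non-immunoglobulin UMIs in sum, which limits the precision of their values.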

Other observations

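Across single IgA plasma cells the immunoglobulin share of UMIs and the summed share of the 38 genes had a Spearman rho of -0.093 over 535 cells of the WT library and 0.16 over 451 cells of the Ring1AKO library. The total UMIs of a cell and the summed share had a rho of -0.0059 and 0.19. Both are descriptions across cells of a single library that share its preparation and depth, and such weak values are no finding.

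The mixed clusters left out of the plasma class also carried ER mRNA. A cluster of 34 and 149 cells in which the median T cell marker stood at 26.6% of its level in T cells had a summed share of 2.94% and 2.33%, and a cluster of 99 and 62 cells in which the median monocyte and macrophage marker stood at 43.1% of its level in those cells had 2.64% and 2.36%, both between plasma cells and the leukocytes of the other lineage. The cells of the former had medians of 29462 and 2478 UMIs in the WT and Ring1AKO libraries, so the same cluster held deep cells in one library and shallow ones in the other.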
